A study of Mus musculus with 4 samples.

Results

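The genes of acetylcholine synthesis and transport, 7 in all (Chat, Slc18a3, Acly, Slc10a4, Slc5a7, Ache and Slc44a1), were followed through a list of genomic sites bound by a Flag-tagged Isl1-Lhx3 fusion protein in mouse cells. A peak was counted for a gene when the position of its maximum had that gene's transcription start as the nearest start of any protein-coding gene on mm9. Chat and Slc18a3 share a locus and were treated as a single locus, which gave 6 loci. By this rule 7 peaks in 6 regions, of 2454 nuclear peaks in 2301 regions, belonged to these genes. They lay at 4 of the 6 loci: 2 at Chat/Slc18a3, 3 at Acly, 1 at Slc10a4 and 1 at Slc44a1. Slc5a7 and Ache had none. Of all 22333 protein-coding genes that could receive a peak, 1826 had at least 1, which is 8.18%.

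Acetylcholine is the transmitter that motor neurons release onto muscle. Choline acetyltransferase (Chat) joins choline to the acetyl group of acetyl-CoA, and the vesicular transporter Slc18a3 loads the product into synaptic vesicles. Acetylcholinesterase (Ache) breaks it down outside the cell, and the freed choline is taken back up for a new round. Isl1 and Lhx3, of the LIM-homeodomain class of transcription factors, act together in a complex when spinal motor neurons are specified, and homeodomains typically contact DNA at a short core, ATTA on one strand and TAAT on the other.

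The cells, called iMN-ESCs, are mouse embryonic stem cells derived from the A172LoxP line, in which the Flag-Isl1-Lhx3 transgene is switched on by doxycycline (Dox). The ChIP libraries with the Flag antibody were 2 from cells with Dox at 2 µg/mL and 2 from cells without Dox. All 4 came from embryoid bodies given retinoic acid at 0.5 µM, alone for 2 days and then for another 4 days with or without Dox, with LIF at 1000 units/mL in the last 16 hours. The fusion is an engineered protein that stands in for the Isl1/Lhx3 dimer, so its sites are those of the transgene product, not of the native proteins. The deposited list holds 1 ChIP score and 1 background score per peak and 1 count of tags per region, with no value per library. No comparison of with Dox against without Dox could therefore be made from it, no spread between replicates is known, and every result here is a description with no test. The total depth of the libraries is unknown. A gene without a listed peak may still be bound below the level at which peaks were listed, and the nearest start does not show which gene a site acts on. No RNA level was measured in these data.

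The sequences under the peaks are shown first, because the homeodomain cores in them differ from locus to locus. Each is from mm9, is written 5′ to 3′ in the direction of the gene, and has every ATTA or TAAT in capitals. The Chat sequence is chr14:33256807-33257105 on the minus strand and covers both maxima of the region. The Acly sequences are the windows around its 2 intronic maxima, chr11:100382115-100382314 for the stronger and chr11:100379526-100379725 for the weaker, on the minus strand. The Slc10a4 sequence, chr5:73397979-73398142 on the plus strand, ends at the base before the transcription start. The Slc44a1 sequence, chr4:53398471-53398670 on the plus strand, is shown because it holds no core.
Chat: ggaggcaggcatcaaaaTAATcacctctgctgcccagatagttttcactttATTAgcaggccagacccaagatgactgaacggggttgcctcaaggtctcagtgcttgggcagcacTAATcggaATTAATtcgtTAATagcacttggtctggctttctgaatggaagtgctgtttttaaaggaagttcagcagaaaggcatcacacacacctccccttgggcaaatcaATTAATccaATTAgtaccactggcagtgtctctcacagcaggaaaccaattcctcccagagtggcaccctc
Acly stronger: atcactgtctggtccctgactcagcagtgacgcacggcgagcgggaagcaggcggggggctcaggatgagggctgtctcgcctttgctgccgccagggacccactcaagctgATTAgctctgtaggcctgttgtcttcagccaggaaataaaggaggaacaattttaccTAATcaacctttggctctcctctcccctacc
Acly weaker: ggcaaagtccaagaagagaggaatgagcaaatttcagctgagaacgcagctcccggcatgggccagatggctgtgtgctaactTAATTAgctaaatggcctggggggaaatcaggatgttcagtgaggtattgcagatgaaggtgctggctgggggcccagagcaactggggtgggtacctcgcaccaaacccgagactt
Slc10a4: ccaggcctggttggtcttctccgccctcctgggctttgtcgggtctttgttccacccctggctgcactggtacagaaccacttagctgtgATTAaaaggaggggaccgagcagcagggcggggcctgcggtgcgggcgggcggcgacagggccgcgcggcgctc
Slc44a1: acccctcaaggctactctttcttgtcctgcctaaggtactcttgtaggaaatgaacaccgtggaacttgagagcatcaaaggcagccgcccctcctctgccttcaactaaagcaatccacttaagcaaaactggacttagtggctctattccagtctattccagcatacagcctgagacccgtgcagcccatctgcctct

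The Chat/Slc18a3 locus held the strongest peak of the group. Its region ran from 33256447 to 33257203 on chromosome 14 (757 bp), within intron 8 of a 16-exon Chat transcript, an intron of 20.5 kb. The stronger maximum, at 33256867, scored 87.25 in the ChIP column and 0 in the background column, and 92.5% of all nuclear peaks scored lower (rank 180). The weaker maximum lay 178 bp away at 33257045, and scored 47.37 against a background of 1.53 (rank 838). The region held 84 tags (67.0 to 104, exact 95% Poisson interval, which covers counting error only), against a median of 30 tags over all regions. Tags were not scaled by region length, and the median region was 467 bp long. Regions with 2 or more maxima made up 5.87% of the list. ChIP scores of all peaks lay between 29.98 and 321.18, the median being 40.95, so both Chat maxima scored above the median peak.

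GENCODE M1 does not list Slc18a3, whose product fills synaptic vesicles with acetylcholine. Its RefSeq promoter sequence, which is tabulated on GRCm38.p6, matched mm9 exactly once, and this placed its start at 33278036, inside the Chat gene and 1.06 kb downstream of the Chat start. The stronger maximum lay 22.2 kb downstream of the Chat start and 21.2 kb downstream of the Slc18a3 start. The Slc18a3 start was thus nearer to both maxima than the Chat start, by the same 1.06 kb. The peaks are counted for the joint locus, and nearness does not show which of these genes they act on. A lincRNA gene, Gm2990, had a start 21.4 kb from the stronger maximum, nearer than the Chat start but farther than the Slc18a3 start. At the weaker maximum the order was the same, with Gm2990 at 21.18 kb and Slc18a3 at 20.99 kb. The next peaks along the chromosome formed a separate region 28.2 kb past the 3′ end of Chat, with ChIP scores of 111.34 and 99.57 and 119 tags. These stronger peaks were nearest to 1700024G13Rik and were not counted for Chat.

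**Figure D1:**
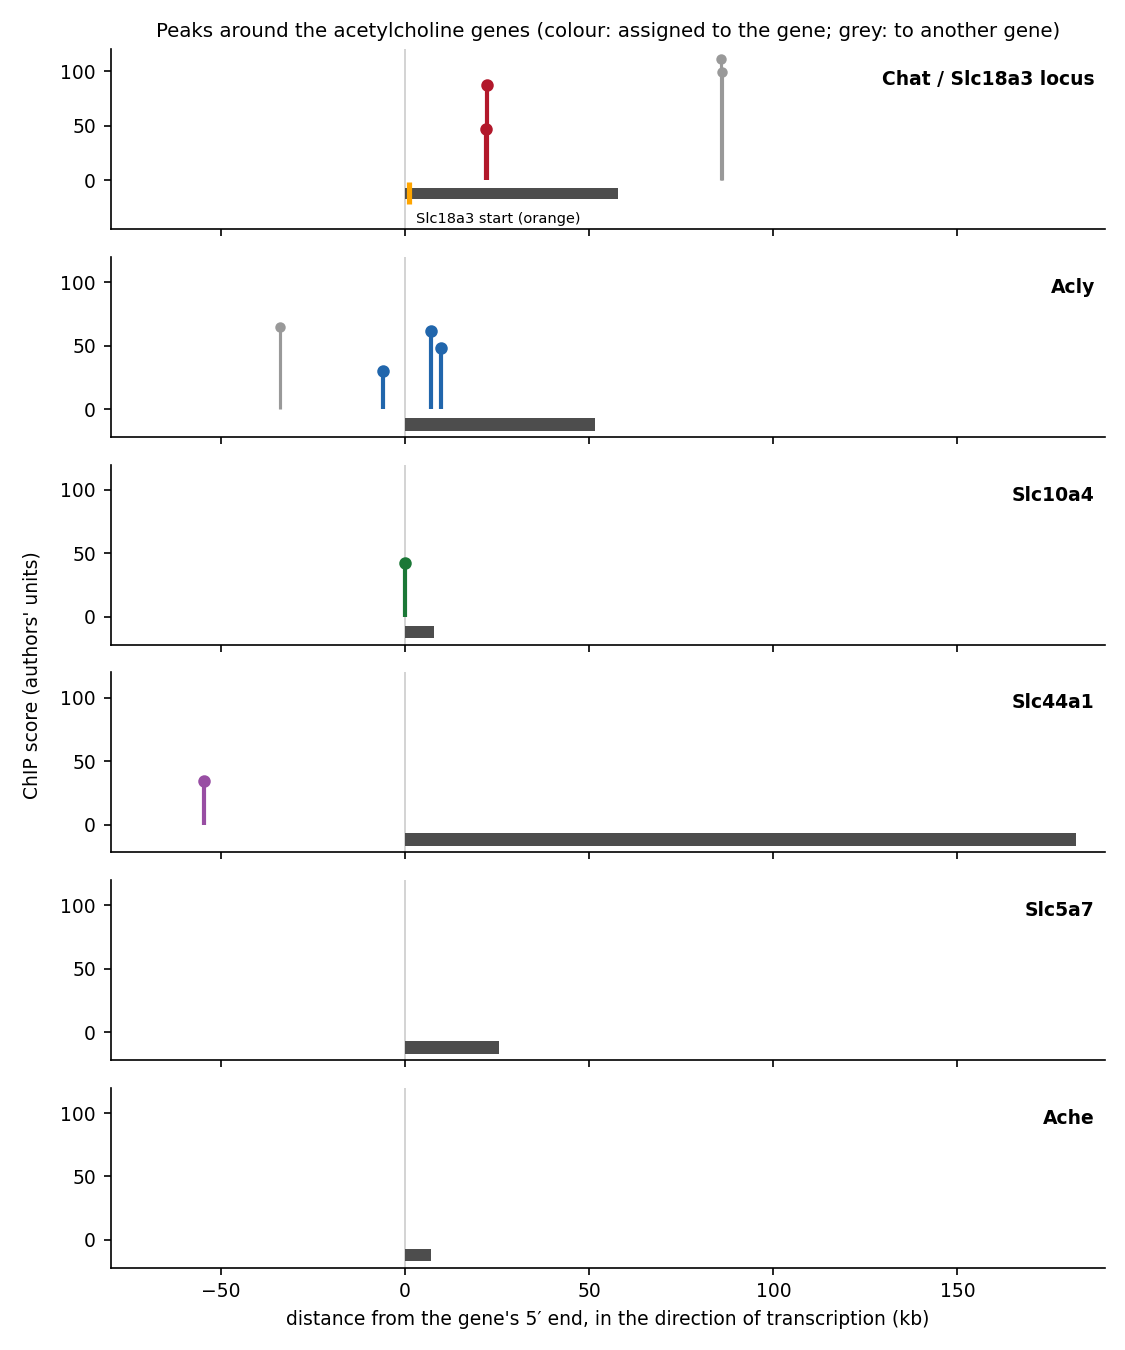
Each panel plots the ChIP score (vertical axis, the authors' units) of the listed peaks that fall in the range shown. The horizontal axis is the distance in kb from the 5′ end of the gene, in the direction of transcription. The dark bar is the gene, coloured points are peaks assigned to it and grey points are peaks nearer to another gene. The Acly peaks gather around the 5′ end, the Slc10a4 peak sits at the start and the Chat peaks lie inside the gene. The Slc44a1 peak lies 54.7 kb upstream. The Slc5a7 and Ache panels are empty over the range shown, because the nearest peaks of these genes lie beyond it.

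Acly had the most peaks of the group, 3 in 3 separate regions of chromosome 11. It encodes ATP citrate lyase, the cytosolic enzyme that makes acetyl-CoA from citrate, the substrate that Chat uses. Peaks of at least 3 separate regions were found at 88 of the 22333 protein-coding genes (0.394%), or 4.82% of the genes with any peak, whereas 80.8% of the genes with a peak had them in a single region. The strongest Acly maximum, at 100382215 in intron 3 of a 29-exon transcript, scored 61.56 against a background of 0 and had 49 tags (36.3 to 64.8). The next, at 100379626 in intron 6, scored 47.91 against a background of 2.05 and had 32 tags (21.9 to 45.2). The weakest, at 100395395 upstream of the gene, scored 29.98 against a background of 0.16 and had 19 tags (11.4 to 29.7). That score is the lowest in the list, shared by 21 peaks, so the upstream peak was only just listed.

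The Acly peaks spanned 15.8 kb, and the intronic maxima were 2.59 kb apart. Measured from the 5′ end of the gene at 100389314, the maxima lay 7.10 kb downstream, 9.69 kb downstream and 6.08 kb upstream. The annotation also has shorter Acly transcripts that begin at 100384912, and from that start the intronic maxima were 2.70 and 5.29 kb downstream. When noncoding genes were allowed to receive peaks as well (1938 of 37220 genes, or 5.21%, then had one), all 3 peaks still had an Acly start as the nearest. The next peak on this chromosome, 34.0 kb from an Acly start, scored 65.04 and was nearest to Ttc25.

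Slc10a4 was the only member with a peak at its start. It encodes a vesicular protein of the bile acid transporter family that is found in cholinergic and monoaminergic neurons. The maximum, at 73398079 on chromosome 5, lay 64 bp upstream of the start at 73398143, and scored 42.82 against a background of 0. Its region of 320 bp held 21 tags (13 to 32.1). Only 40 of the 2454 peaks (1.63%) lay within 100 bp of a protein-coding start. By score this was a peak of the middle of the list, with 54.6% of peaks scoring lower. Its tag count and its region length were both below the median of all regions. The nearest start of another protein-coding gene was 32.1 kb away.

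Slc44a1 had the most distant peak. It encodes a choline transporter of the plasma membrane and mitochondria with a broad expression range. The maximum, at 53398571 on chromosome 4, lay in intergenic sequence 54.7 kb upstream of the gene, and scored 34.53 against a background of 0, with 22 tags (13.8 to 33.3). Of all peaks 26.0% scored lower, and 32.4% lay more than 50 kb from a protein-coding start. The noncoding gene Gm12496 had a start 18.3 kb from the maximum. The next protein-coding start other than Slc44a1 was 123 kb away.

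**Figure D2:**
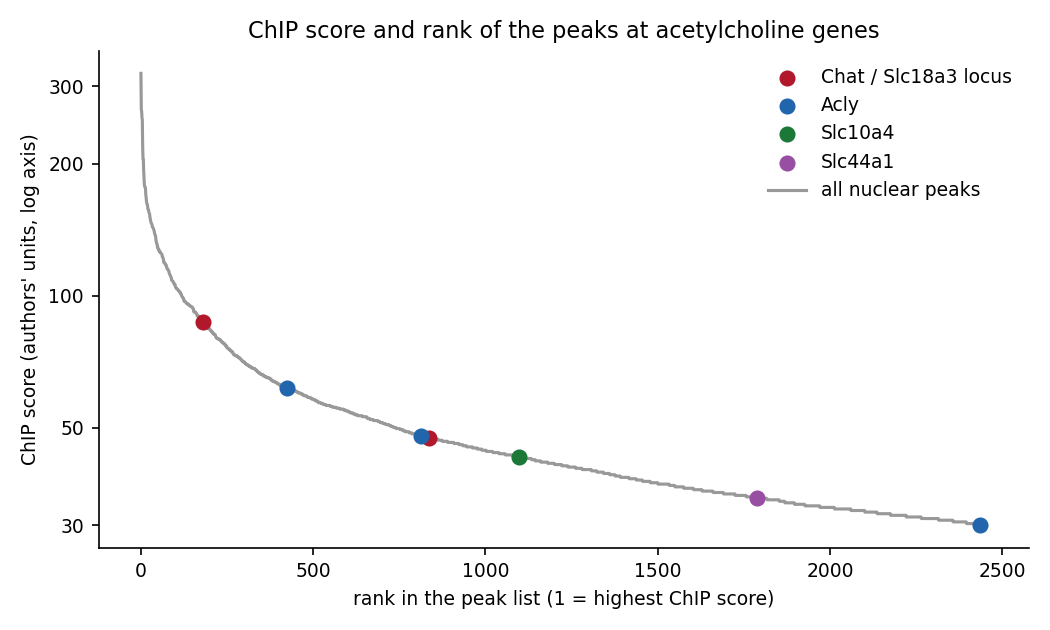
The grey line gives the ChIP score (vertical log axis, the authors' units) of all 2454 nuclear peaks against their rank in the list, and each coloured point is a peak assigned to an acetylcholine gene. The points run from rank 180 (Chat) to rank 2434 (Acly), spread along the whole list.

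Slc5a7 and Ache had no peak. Slc5a7 encodes the high-affinity choline transporter of cholinergic terminals, which supplies choline for synthesis. Its gene lies on chromosome 17 from 54412919 to 54438359, and the nearest listed peak was 702 kb from its start, with a ChIP score of 58.88, next to Kat2b. For 70.2% of 22316 protein-coding genes on chromosomes with a peak, the nearest peak was closer than this, and the median was 344 kb. Ache lies on chromosome 5 from 137728747 to 137735694, and its nearest peak was 124 kb from a start, scored 38.54 and was nearest to Muc3. Only 24.7% of genes had a nearest peak closer than that of Ache, so Ache was nearer to a listed peak than most genes although none was assigned to it.

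The background score was low at all 7 peaks. It was 0 at 4 of them, the strongest peaks of Chat and Acly and the peaks of Slc10a4 and Slc44a1. At the others it was 4.28% (Acly, 47.91), 3.23% (Chat, 47.37) and 0.534% (Acly, 29.98) of the ChIP score. Over the whole list 31.1% of peaks had a background score of 0, the median was 0.722% of the ChIP score and the highest 32.5%. The sources used here do not say from which libraries or reads that score was computed.

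A gene is nearest to more peaks by position alone when it has few neighbours. The bases nearest to a gene's starts are called its territory here, and genes were split into 10 groups of about equal number by territory. Slc10a4 had a territory of 36.1 kb, and 4.88% of genes of that size group had a peak. Acly (60.7 kb) and Ache (51.4 kb) were in a group of which 5.91% had a peak, and Chat (62.6 kb) in a group of which 8.28% did. The territories of Slc44a1 (262 kb) and Slc5a7 (210 kb) were in a group of which 16% had a peak. The Slc44a1 territory held 1 peak, against 0.242 at the mean density of the list (0.924 peaks per Mb), and the Acly territory held 3, against 0.0561. The Slc44a1 peak thus lay in the widest of these territories, and the Slc10a4 peak in the narrowest.

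Homeodomain cores were present in the 200 bp around 6 of the 7 maxima. By comparison ATTA, searched on both strands so that TAAT counts too, was in 94.2% of all peak windows and in 66.7% of windows 1000 bp to either side. Over the 2311 peaks with ATTA, the nearest was a median of 15.5 bp from the maximum. The longer core TAATTA, which is its own reverse complement and contains an overlapping TAAT and ATTA, was in 1 of 7 peaks of these genes, against 34.3% of all peaks and 6.50% of flanks. That peak was the weaker intronic Acly peak, where the core was centred 13.5 bp from the maximum, against a median of 25 bp over all peaks with it. It is the TAATTA in the second Acly sequence above.

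The Chat region was the richest in cores among these genes. The printed 299 bp hold 9 of them, and the maxima are at its bases 61 (weaker) and 239 (stronger). At the stronger maximum the letters ATTAAT, in which an ATTA and a TAAT overlap, are followed after 3 bases by a further ATTA at bases 238 to 241, on the maximum itself. Read on the other strand this includes the same-direction pair TAATNNNNNTAAT, which was in 6.03% of all peaks and 1.24% of flanks. Between the maxima a second ATTAAT at bases 125 to 130 is flanked on each side, after 4 bases, by a TAAT. The window of the weaker maximum held 6 cores, and 92.1% of all peaks held fewer. The window of the stronger maximum held 3, the median of all peaks. TAATTA itself was not found in the Chat windows.

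The same overlapping ATTAAT was also in the upstream Acly peak, centred 32.5 bp from the maximum. With the pair of Chat maxima this made 3 of 7 peaks, against 13.2% of all peaks and 5.22% of flanks. This motif and TAATNNNNATTA, which was in the window of the weaker Chat maximum and in 0.856% of all peaks, were searched after the sequences had been seen, so these counts describe the printed sequences only. The stronger intronic Acly peak had 2 separate cores, the nearer centred 14.5 bp from the maximum.

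The promoter peak of Slc10a4 had a single core, centred 8.5 bp from the maximum, in a GC-rich window. Its GC content was 67%, higher than in 99.6% of peaks, against a median of 48% and quartiles of 44.5% and 51.5%. Only 5.83% of peaks had fewer cores than this window. The intronic Acly peaks had a GC content of 57% and 54%, also above the upper quartile, and both Chat windows had 48.5%. The Slc44a1 window, at 50.5% GC, had 0 cores in the 200 bp centred on its maximum, as 5.83% of all peaks did. In the full 500 bp window it had 3, against a median of 5 over all peaks and 12 around the weaker Chat maximum, a number that 2.40% of peaks reached or passed.

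**Figure D3:**
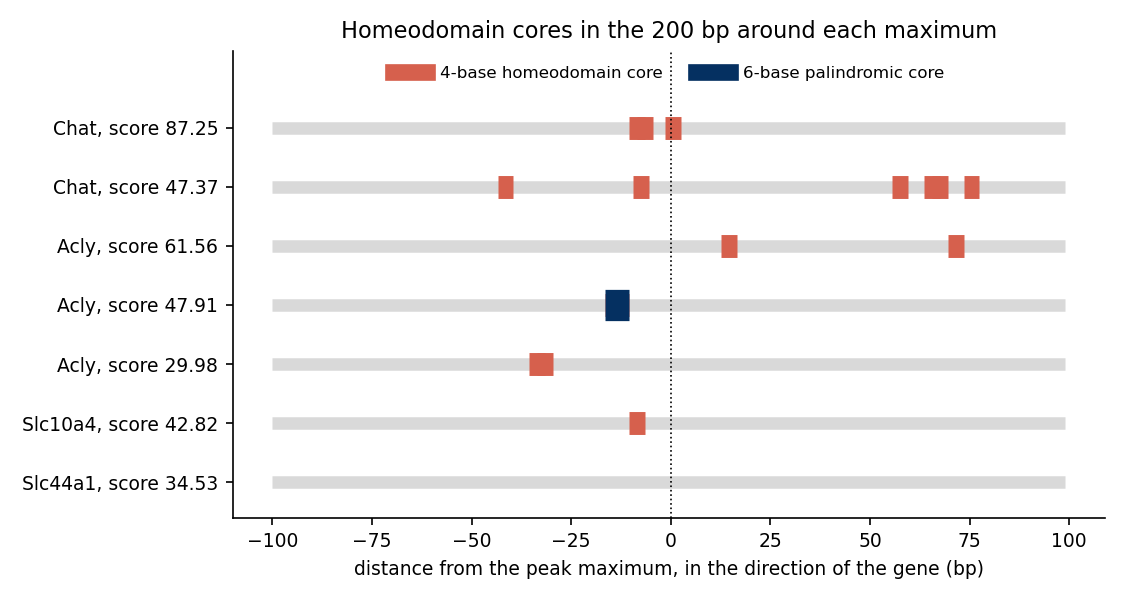
Each grey bar is the 200 bp window of 1 peak, drawn by distance in bp from its maximum in the direction of the gene; red marks are 4-base homeodomain cores and the dark blue mark is the 6-base palindromic core. Cores lie within 15 bp of the maximum at 5 of the 7 peaks, 31.5 bp away at the upstream Acly peak (score 29.98), and are missing from the Slc44a1 window. Over all peaks with a 4-base core, the median distance to the nearest was 15.5 bp.

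Other motifs were searched in the same windows. The E-box CAGCTG was in 2 of 7 peaks (Slc10a4 and the weaker intronic Acly peak) and in 13.9% of all peaks. The SOX site ATTGTT was in 2 of 7 (the stronger intronic and the upstream Acly peaks) and in 14.3% of all. The POU octamer ATGCAAAT and the relaxed STAT site TTCNNNGAA were in 0 of 7, and in 4.24% and 5.01% of all peaks. The pairs ATTANNTAAT, ATTANNNTAAT and ATTANNNNNNNNNNTAAT were also in 0 of 7, and in 3.55%, 4.93% and 2.93% of all. Shares this low cannot be told from 0 with 7 peaks.

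Promoters were searched as well, from 250 bases before to 50 after each RefSeq start. The 8 promoter entries of the 7 genes each matched mm9 exactly once. TAATTA was in none of them, and in 5.29% of 32851 RefSeq promoters. ATTA or TAAT was in those of Slc10a4 and Slc18a3, and in 58.0% of all. The Slc10a4 core is the one that lies at the peak, whereas the Slc18a3 promoter held a core without a listed peak within 20 kb.

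Other genes of the pathway and of its neighbours were counted in the same way, in lists drawn up with earlier results of these data known. A peak was found at 4 of the 6 annotated acetylcholine genes, against 11 of the 63 listed genes (17.5%) and 8.18% of all protein-coding genes. In the supply of acetyl-CoA and citrate, 1 of 9 genes had one: Pdha1, of the pyruvate dehydrogenase complex (41.22, 52.1 kb upstream).

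Among choline transporters and choline-using enzymes 3 of 15 had a peak. They were Slc44a3 (71.46, 3 peaks, the strongest 7.90 kb upstream), the choline kinase gene Chka (33.46, 0.237 kb from a start) and Slc44a5 (31.85). Slc44a3, a relative of Slc44a1, thus had a higher-scoring and nearer peak than Slc44a1 itself. Of the genes for breakdown and anchoring, 1 of 3 had a peak, Prima1 (39.88), which encodes the membrane anchor of acetylcholinesterase in neurons. In the SLC10 family the other gene with a peak was Slc10a7 (54.07, 116 kb from a start), 1 of 6.

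Genes of other transmitters also had peaks. Of 10 other vesicular transporter genes 2 did: Slc32a1, the vesicular GABA and glycine transporter, scored 114.02 at 15.4 kb upstream, above every peak of the acetylcholine genes, and Slc18a1, a vesicular monoamine transporter and relative of Slc18a3, scored 48.18. Of 15 genes of other transmitter synthesis and uptake, 3 had a peak. Ddc, which makes dopamine and serotonin from their precursors, scored 59.15 at 0.743 kb from its start. Tph2, the neuronal enzyme of serotonin synthesis, scored 48.44 at 0.234 kb, and Slc6a5, a glycine transporter, scored 34.53. Muscarinic receptor genes had 0 of 5.

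**Figure D4:**
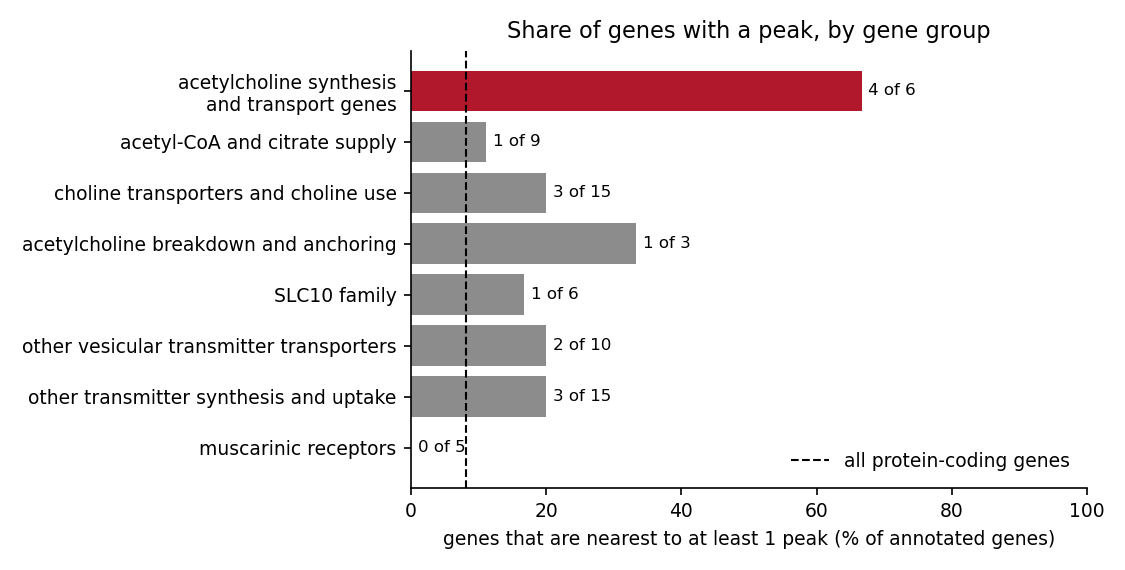
Bars give the share of annotated genes (horizontal axis, %) that are nearest to at least 1 peak, with the counts beside them, for the acetylcholine genes on top and 7 related lists below; the dashed line is the share of all protein-coding genes, 8.18%. The top bar stands at 4 of 6, the related lists between 0 of 5 and 1 of 3.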

How the data were processed

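Flag ChIP-seq of iMN-ESCs comprised 2 libraries with Dox and 2 without. Per the submitters' processing notes, BWA 0.5.8a and the build mm9 were used; which peak caller and threshold were used, and whether sets were pooled, is not stated there. The authors deposited 1 list of 2455 peaks in 2302 regions. Its ChIP and background values are a deposited score with no stated scale, and its tags are a deposited whole-number count per region, shared by all peaks of a region. A single mitochondrial peak was left out. Chromosome lengths of the reference (NCBIM37) held all peak windows.

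Each maximum was assigned to the nearest start among all transcripts of protein-coding genes of GENCODE M1 (Ensembl 65), in Python 3.11.15 with pandas 2.3.3; the assignment was checked on simulated positions. Motifs were searched on both strands in 200 bp centred on the maximum; Slc18a3 and promoters were placed by exact sequence match. Coordinates are 1-based. All 63 related genes matched, 1 of them by an older symbol. Named were all members, the genes nearest to their peaks, the peaks nearest to members without one, and up to 4 genes with a peak per related list by score. The next peaks beside Chat and Acly, with their nearest genes 1700024G13Rik and Ttc25, were added after their values were seen. The members and lists were chosen with earlier results of these data known. No test was run. Alternatives were other gene sets and start definitions, distance limits of 10 and 100 kb, higher-scoring peaks, low background, 1 peak per region and other motif windows.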

Additional observations from a re-analysis of the deposited data

How the results depend on the processing

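Among genes of every type 5.21% had a peak. With peaks assigned among them, 2 of the member loci (Acly and Slc10a4) with 4 peaks were left. The noncoding gene Gm12496 starts nearer to the Slc44a1 peak than Slc44a1 does. Gm2990 starts nearer to both Chat maxima than Chat does, but the Slc18a3 start is nearer than that of Gm2990. The loss of the Chat/Slc18a3 locus thus rests on the lack of Slc18a3 in GENCODE M1. Within 10 kb of a start Acly and Slc10a4, with 4 peaks, were again the loci left. Of all nuclear peaks, 33.0% lay within 10 kb of a protein-coding start and 81.5% within 100 kb. Among the 615 peaks scoring at least 54.07 (the top 25%, ties included), 2 loci (Chat and Acly) with 2 peaks were left. Among the 1239 peaks scoring at least 40.95 (the top 50%, ties included), 3 loci with 5 peaks were left. The counts of 4 loci and 7 peaks did not change within 100 kb, with peaks whose background stayed below 10% of the ChIP score, or, in versions added after the data were seen, with starts of protein-coding transcripts only or 1 start per gene. With 1 peak per region there were 6 peaks at 4 loci. TAATTA was in 1 member peak in windows of 100, 200 and 400 bp, against 26.4%, 34.3% and 39.5% of all peaks. No paired analysis was possible because the list has no value per library, and leaving out a replicate was not possible for the same reason. The unknown depth limits what the missing peaks of Slc5a7 and Ache can show.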
